A study of Mus musculus with 4 samples.

Results

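Interferon-stimulated genes were followed in dispersed pancreatic islet cells of mice: 39 genes listed by symbol, of which 29 are chiefly induced by type I interferon and 10 chiefly by interferon gamma. Of these, 37 had a row among the 32285 measured genes (27 type I and 10 gamma-type), and Mx1 and Mx2 were not analysed here. The members were chosen by gene symbol, not by any measured value. Interferons are cytokines that warn cells of infection: type I interferons (alpha and beta) act through the receptor chains Ifnar1 and Ifnar2 and a complex that includes Stat2 and Irf9 and binds the interferon-stimulated response element (ISRE), while interferon gamma, made by T cells and natural killer cells, acts through Ifngr1 and Ifngr2 and the gamma-activated site (GAS). The 2 target sets overlap. In the islet, interferon responses are studied in autoimmune diabetes, in which beta cells are attacked by infiltrating immune cells.

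Single-cell RNA-seq was done on 4 samples from mice aged 5 weeks; the study's title names the non-obese diabetic (NOD) strain, which develops autoimmune diabetes. In 2 samples beta cells had lost Xbp1 (Xbp1β-/-), which codes for a factor that answers protein misfolding in the endoplasmic reticulum, and 2 came from Xbp1fl/fl mice, which carry the floxed allele and are labelled wild type; all 4 received tamoxifen at 10 mg/ml, the trigger of the inducible Cre. The sources used here do not give the promoter that drives Cre. Islets were hand-picked and cultured overnight before dissociation. The deposited matrix pools all cells, and the suffix of a barcode, 1 to 4, was taken as its library; no label ties it to a sample or genotype. The genotypes were therefore not compared; every value is given per library, without a test, and the library numbers carry no order. Nothing says whether a library holds 1 mouse or several. Xbp1, the targeted gene, had 128, 228, 109 and 222 CPM in low-Spp1 beta cells of libraries 1 to 4 (classes and units are defined below), 56.4, 209, 46.3 and 212 CPM in high-Spp1 beta cells and 200.2, 171, 179 and 165 CPM in alpha cells; the deleted exons are not named in the sources, and no library was given a genotype from these values.

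Of the promoters held in the RefSeq table (GRCm38.p6, 250 bases before to 50 after each start), 20 type I and 8 gamma-type members had one, and these stretches hold the letters that interferon-activated factors are known to bind. The ISRE letters, GAAA and again GAAA with 2 bases of any kind between them, on either strand, were found in 11 of 20 type I and 7 of 8 gamma-type genes, against 3.99% of the 27025 genes in the table. The GAS letters TTCNNNGAA, which read the same on both strands, were found in 4 of 20 type I and 5 of 8 gamma-type genes, against 9.55% of all genes. Both motifs stood in 2 of 20 and 4 of 8, against 0.540% of all genes; matches may overlap. A match is a description of the letters, not evidence of binding. The 60-base windows below lie upstream of the RefSeq start, on the strand of the gene, with each whole match in capitals. They were picked among members with such a match: type I members with wide differences between libraries or classes, beside a pair of gamma-type ones. Members without a match, such as Irf7, are not shown, though Irf7 also differed widely between libraries. Isg15, a ubiquitin-like protein, carries 3 overlapping ISRE matches; Bst2, a membrane tether that holds back budding virus, carries ISRE matches that overlap a GAS match. Irf1, a transcription factor, is shown with a GAS match. Igtp, an immunity-related GTPase, has both.
Isg15 (chr4:156200850-156200909, minus strand): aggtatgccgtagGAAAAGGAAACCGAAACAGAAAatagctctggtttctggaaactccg
Ifit1 (chr19:34640779-34640838, plus strand): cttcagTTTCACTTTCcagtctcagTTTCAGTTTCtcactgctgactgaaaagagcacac
Ifit3 (chr19:34583382-34583441, plus strand): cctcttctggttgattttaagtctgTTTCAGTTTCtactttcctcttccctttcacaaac
Rsad2 (chr12:26456538-26456597, minus strand): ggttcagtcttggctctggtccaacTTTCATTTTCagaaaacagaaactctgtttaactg
Bst2 (chr8:71537562-71537621, minus strand): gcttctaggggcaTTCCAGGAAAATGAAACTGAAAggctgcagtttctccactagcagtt
Irf1 (chr11:53769898-53769957, plus strand): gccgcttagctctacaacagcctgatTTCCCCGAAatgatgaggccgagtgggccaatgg
Igtp (chr11:58199485-58199544, plus strand): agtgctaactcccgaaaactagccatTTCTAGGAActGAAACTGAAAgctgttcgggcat
The Ifit3 window was identical in 60 of 60 bases to that of its copy Ifit3b. Ifit2, Ifit3, Ifit3b and Ifit1, RNA-binding antiviral proteins, lie side by side on chromosome 19 between 34550694 and 34650009 (GRCm38), and how reads of Ifit3 and Ifit3b were split between them is uncertain. The same holds for the Oas, Gbp and Trim30 families and for Igtp and Irgm2, whose annotated spans overlap on the plus strand of chromosome 11 (from 58199556 and 58199618).

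Of 19987 barcodes, 16146 were kept. The libraries differed in depth and in make-up: 3635, 5268, 3455 and 3788 cells in libraries 1 to 4, with a median of 13287, 33052, 15759 and 27499 unique molecular identifiers (UMIs) per cell, and 28 barcode sequences stood in more than 1 library. Libraries 1 and 3 held most immune, ductal and stromal cells and libraries 2 and 4 most beta cells. Beta cells (Ins2 at 5% of UMIs or more) were split at Spp1, the osteopontin gene, at 0.5% of UMIs into low-Spp1 cells (234, 3211, 356 and 2002) and high-Spp1 cells (355, 131, 377 and 219); 760 of 6885 beta cells lay between 0.25% and 1%. Alpha cells (Gcg at 5% or more) numbered 252, 769, 298 and 727 and delta cells (Sst at 3% or more) 220, 426, 334 and 403. Clusters were called endothelial-like, ductal-like and so on from fixed markers and are named without the ending here; they gave 150, 82, 152 and 69 endothelial, 636, 21, 324 and 7 ductal, 206, 31, 200 and 33 stromal, 649, 27, 495 and 1 B, 138, 46, 128 and 7 T, 166, 88, 156 and 38 macrophage, and 149, 20, 136 and 2 dendritic cells. A level is the summed UMIs of a gene in a class of 1 library per 1000000 UMIs (CPM) without 7 hormone genes, which took 45.03% to 57.8% of low-Spp1 beta-cell UMIs and 2.79% or less of endothelial ones. Intervals are exact Poisson at 95% and cover counting error only. Fewer cells with a transcript and less RNA in each cell cannot be told apart in such sums. Of the low-Spp1 beta-cell totals, the 27 type I members had 7837, 17982, 8267 and 8160 UMIs and the 10 gamma-type members 1104, 6280, 1378 and 2860.

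Beta cells of libraries 1 and 3 had more of every type I member measured than those of libraries 2 and 4. In low-Spp1 beta cells the 27 members together stood at 1257 CPM (1229.7 to 1286), 307 CPM (302 to 311), 826 CPM (809 to 844) and 244 CPM (239 to 249.8) in libraries 1 to 4. Library 1 was 4.099-fold (3.99 to 4.21) above library 2, 5.14-fold (4.99 to 5.31) above library 4 and 1.52-fold (1.48 to 1.57) above library 3, and library 2 was 1.25-fold (1.22 to 1.29) above library 4. Each of the 27 members was higher in both library 1 and library 3 than in either of libraries 2 and 4, an order held by 49.7% of the 15839 genes tested; this order was noticed in the data and then counted. A range over libraries of 1 log2 unit or more (on CPM plus 10) was reached by 17 of 27 type I members, against 3.28% of all genes tested, with each of the 17 highest in library 1, against 1.21% of all genes, and by 0 of 10 gamma-type members. The median range was 1.22 for type I members, 0.69 for gamma-type members and 0.22 for all genes. Without library 1 the count of members was 10 of 37. With 1 in place of 10 added to each CPM it was 33 of 37, gamma-type members among them.

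**Figure D1:**
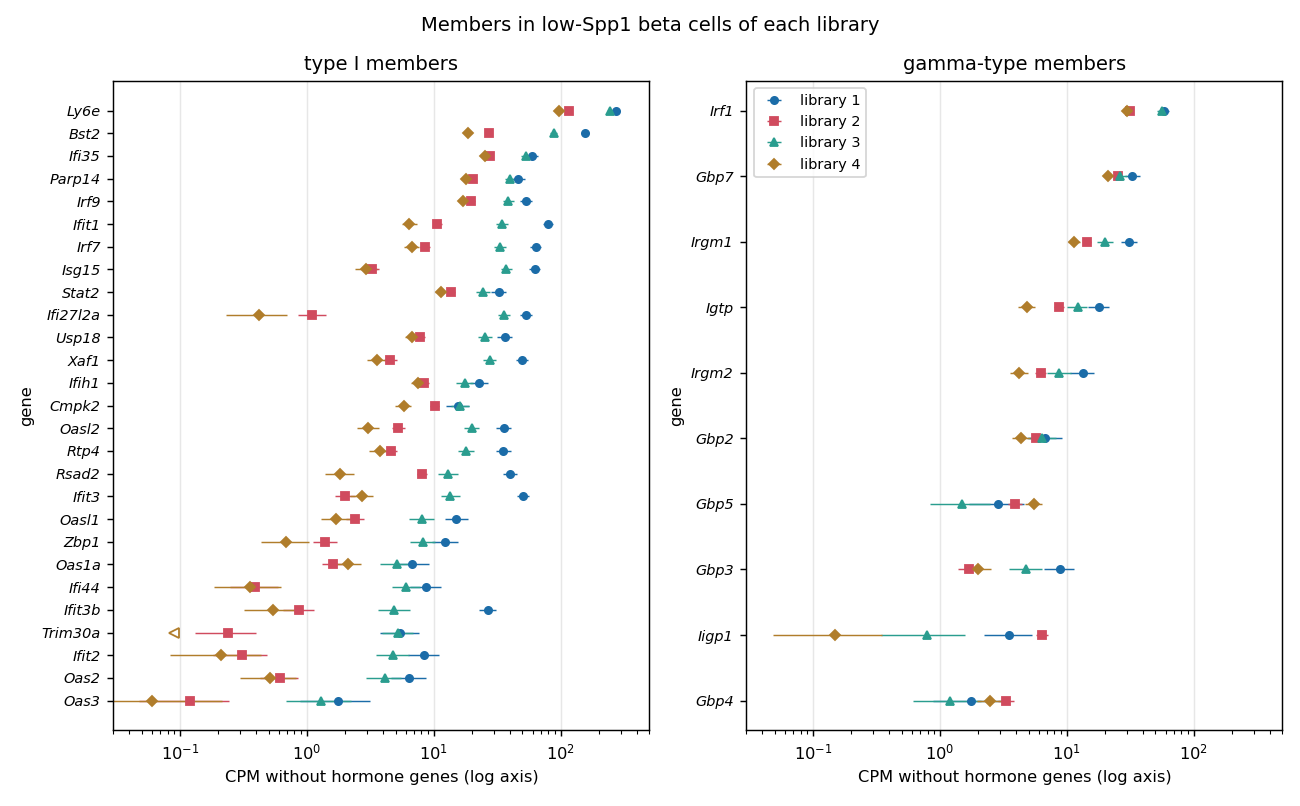
Level of each member in low-Spp1 beta cells, in CPM without hormone genes on a log axis, by library, with exact 95% Poisson intervals; an open triangle marks the limit that 0 UMIs allows. Both library 1 and library 3 lie above the other libraries in each type I member, which does not hold for Gbp4, Gbp5 and Iigp1 of the gamma-type members.

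The members that carry the signal or act as transcription factors showed this order. Irf7, the factor that amplifies type I interferon production, stood at 63.5, 8.598, 33.1 and 6.68 CPM in low-Spp1 beta cells of libraries 1 to 4, a 9.51-fold (8.05 to 11.3) difference between library 1 and library 4. Irf9, the DNA-binding part of the ISRE complex, had 53.1, 19.8, 38.6 and 17.02 CPM and Stat2, its partner, 32.6, 13.8, 24.5 and 11.4 CPM. The spread of these partners was thus narrower than that of Irf7, at ranges of 1.22 and 0.995 against 2.14 log2 units. Of the secreted and ubiquitin-like effectors, Isg15 had 62.3, 3.24, 37.3 and 2.94 CPM, 21.2-fold (16.9 to 26.7) apart, and Usp18, the protease that removes Isg15 from proteins and restrains the receptor, 36.1, 7.85, 25.4 and 6.801 CPM. Bst2 had 156, 27.004, 88.1 and 18.6 CPM, 8.35-fold (7.54 to 9.25) apart. Libraries 1 and 3 were high and libraries 2 and 4 low for each of these genes, with no overlap between the intervals of library 3 and library 2.

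The RNA-binding effectors showed the same order of libraries. Ifit1, which binds viral RNA that lacks the host cap, had 80.1, 10.7, 34.3 and 6.41 CPM in libraries 1 to 4, and Ifit3 had 50.7, 2.01, 13.5 and 2.73 CPM. Rsad2 (viperin), a radical enzyme that makes a chain-terminating nucleotide, had 39.8, 8.07, 12.99 and 1.83 CPM, of which 55.8% in library 2 came from 1 cell; with the 1 cell highest in type I UMIs left out of each library it had 28.8, 3.57, 11.1 and 1.62 CPM. Oasl2, of the oligoadenylate synthetase family, had 35.5, 5.27, 19.9 and 3.06 CPM. Oas1a, Oas2, Oas3, Ifit2, Trim30a and Ifi44 stayed under 9 CPM in every library. Trim30a had 5.45 CPM in library 1 and 0 UMIs in library 4, which allows up to 0.0899 CPM (3 counts). The measured level of library 1 was 60.7-fold that limit. With cells that carry markers of other cell types left out, as described below, Trim30a had 0, 0.0607, 0.847 and 0 CPM. Its UMIs in library 1 were thus all in such cells.

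Several members varied less. Ly6e, a membrane-anchored protein of the Ly6 family, had 274, 116, 243 and 96.8 CPM, 2.83-fold (2.66 to 2.998) from library 4 to library 1. Ifi35 had 59.8, 27.8, 52.97 and 25.1 CPM and Parp14, an ADP-ribosyltransferase, 46.4, 20.5, 39.98 and 17.8 CPM. The sensor Ifih1 (MDA5), which detects long double-stranded RNA and carries variants linked to type 1 diabetes in people, had 22.8, 8.39, 17.6 and 7.58 CPM. Cmpk2, a mitochondrial nucleotide kinase that neighbours Rsad2 on chromosome 12, was the 1 type I member highest in library 3, at 15.4, 10.2, 16.2 and 5.78 CPM. Ifi27l2a, which had the widest range on this scale, rested on few cells: it had 53.6, 1.11, 35.7 and 0.419 CPM, of which 64.4% in library 1 came from 1 cell.

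Gamma-type members differed less and not all in 1 direction. In low-Spp1 beta cells they summed to 177, 107, 138 and 85.7 CPM in libraries 1 to 4, with library 1 2.07-fold (1.93 to 2.22) above library 4. Irf1, which both kinds of interferon induce, had 58.1, 31.3, 55.9 and 29.8 CPM. Gbp7 had 32.9, 25.3, 26.2 and 20.97 CPM. Among the immunity-related GTPases, which act on membranes around intracellular microbes, Irgm1 had 31.1, 14.5, 20.1 and 11.4 CPM, Igtp 17.97, 8.65, 12.2 and 4.82 CPM and Irgm2 13.3, 6.23, 8.696 and 4.22 CPM. These 5 members kept libraries 1 and 3 above libraries 2 and 4, as did Gbp2 and Gbp3. The other 3 did not: Gbp5 had 2.89, 3.92, 1.499 and 5.48 CPM, highest in library 4, Gbp4 had 1.76, 3.34, 1.199 and 2.49 CPM and Iigp1 3.53, 6.38, 0.7996 and 0.1498 CPM, both highest in library 2.

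Markers of some other cell types were higher in libraries 1 and 3, as the type I members were, and those of others were not. In low-Spp1 beta cells the 8 macrophage markers, all detected in every library, summed to 205, 67.7, 128 and 55.5 CPM in libraries 1 to 4, against 11539.6, 14024, 10780.3 and 11437 CPM in macrophages. The 7 fibroblast markers summed to 69.5, 3.26, 69.6 and 3.51 CPM, the 7 B-cell markers to 14.8, 8.598, 20.1 and 5.15 CPM and the 8 dendritic markers to 8.02, 3.38, 41.4 and 1.47 CPM. Library 3 was not above library 2 in the 8 endothelial markers, at 70.4, 51.8, 33.1 and 20.97 CPM, or in the 9 T-cell markers, at 13.8, 8.48, 8.296 and 2.25 CPM; Cd8a and Cd8b1 were at 0 in libraries 1 and 4. The 8 ductal markers summed to 1327, 1278, 1363 and 1395 CPM, near level over libraries. Epcam alone gave 590, 586, 580 and 621 CPM of these sums, and Krt19 4.97, 5.00, 2.70 and 5.54 CPM. Whether the sum reflects RNA of ductal cells or of the beta cells themselves was not tested. Cells with a UMI of Ptprc, Cd79a, Cd3e, Lyz2, C1qb, Pecam1, Cdh5, Col1a1 or Col3a1 were then left out, a choice made after seeing the data that uses no dendritic marker, which kept 183, 2745, 274 and 1803 of 234, 3211, 356 and 2002 low-Spp1 beta cells. The summed type I level was then 1034, 300.02, 692 and 244 CPM and 26 of 27 members kept libraries 1 and 3 above 2 and 4 (Trim30a did not). Single genes moved unequally: Ly6e had 268, 116, 247 and 96.3 CPM without those cells, Ifit1 79.3, 10.7, 30.5 and 6.39, Xaf1 46.3, 4.61, 27.1 and 3.33, Irf7 50.2, 7.73, 22.4 and 6.52, Bst2 113, 25.1, 55.9 and 18.4 and Isg15 24.2, 2.37, 19.6 and 2.69. Ifi27l2a was left at 1.32, 0.769, 3.11 and 0.168 CPM, so most of its UMIs in libraries 1 and 3 were in cells with such markers. The count of members with a range of 1 or more was 15 without those cells, against 17, with 13 members in both. The part of other cells' RNA in the remaining difference was not tested.

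In single beta cells, type I transcripts were sparse. Each cell was thinned to 5000 UMIs, hormone UMIs included, and shallower cells were left out. Of the thinned low-Spp1 beta cells (220, 3062, 330 and 1940), 22.3, 58.03, 28.8 and 60.4% had no type I UMI in libraries 1 to 4, and 27.3, 2.65, 23.6 and 1.598% had 3 or more type I members. In whole, unthinned cells, with median depths of 46015, 42178, 48098 and 37238 UMIs, these shares were 3.85, 8.75, 5.899 and 10.1% and 84.2, 51.2, 85.4 and 42.2%. Ly6e was detected in 47.3, 21.2, 41.2 and 17.8% of the thinned cells and Isg15 in 6.82, 0.425, 7.27 and 0.464%; unthinned, Isg15 was detected in 20.5, 2.77, 15.4 and 2.697%. The tenth of cells with the most type I UMIs held 51.6, 48.6, 43.99 and 47.5% of them. The top cell of library 1 held 662 type I UMIs, with 26 of 27 members detected, where the median cell held 13; without the top cell of each library the type I sum was 1162, 295, 795 and 241 CPM. After thinning, 3 or more type I members were found in 40.6, 10.2, 23.2 and 13.9% of alpha cells, 60.1, 16.7, 41.6 and 16.1% of delta cells and 97.4, 28.1, 83.5 and 26% of endothelial cells in libraries 1 to 4, and in 63.1, 39.7, 57.4 and 38.9%, 88.2, 68.1, 87.1 and 60.3% and 94, 43.9, 87.5 and 36.2% of unthinned ones. No class in these data is known to lack these genes, so no share can serve as a background of free RNA. The 494, 2222, 553 and 572 barcodes below the filters had type I sums of 1109, 219, 895 and 128 CPM in libraries 1 to 4, in the same order of libraries as low-Spp1 beta cells, and their part in the beta-cell levels was not tested. Hormone RNA takes part of the 5000 UMIs in endocrine cells, so shares are compared here only within a class. That part also differed between libraries, at 47.3, 57.8, 45.03 and 56.7% of low-Spp1 beta-cell UMIs. Thinning thus left more other UMIs in libraries 1 and 3, and how far this shaped the shares was not tested.

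**Figure D2:**
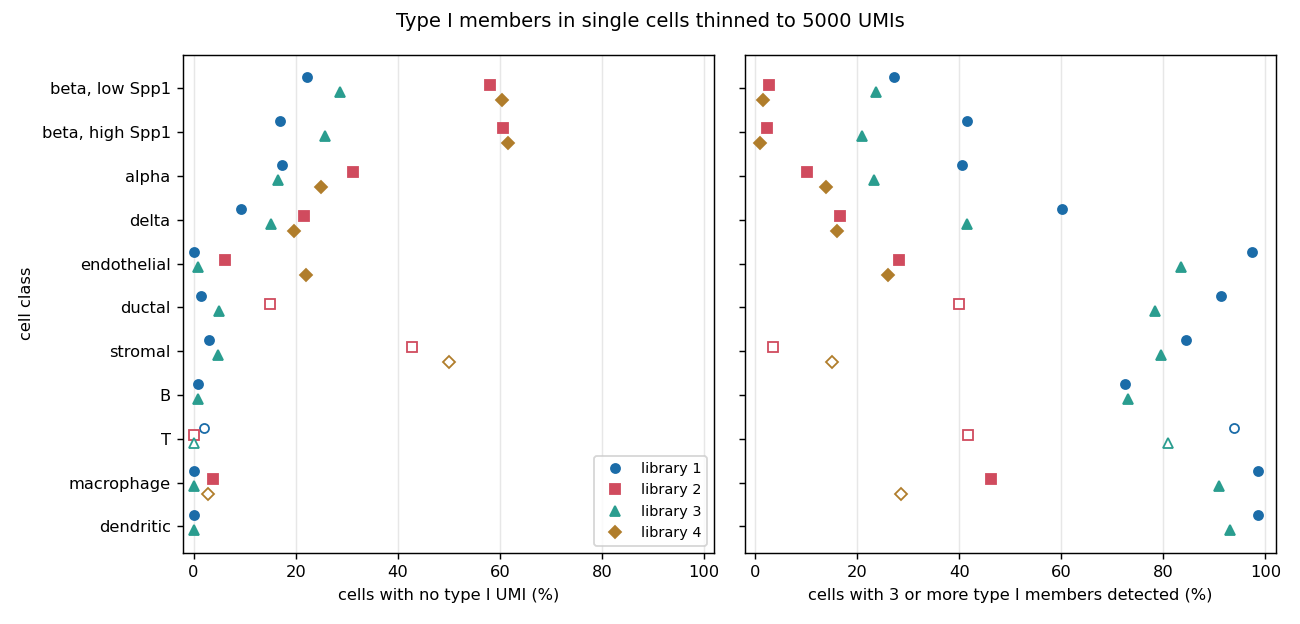
Share of cells with no type I UMI (left) and with 3 or more type I members detected (right), in percent, after thinning each cell to 5000 UMIs, by class and library; open symbols mark fewer than 50 thinned cells and classes with under 20 are not drawn. In low-Spp1 beta cells the share without a type I UMI was 22.3% and 28.8% in libraries 1 and 3 against 58.0% and 60.4% in libraries 2 and 4.

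High-Spp1 beta cells carried members at levels close to those of low-Spp1 beta cells of the same library. Their type I sum was 1150.4, 250.3, 723 and 240.4 CPM in libraries 1 to 4. A member was called higher or lower in a class when its log2 ratio to low-Spp1 beta cells of the same library (CPM plus 10) was at least 1, or at most -1, in every library with 50 cells of both. None of 33 members tested was called in high-Spp1 beta cells, where 0.0303% of 13213 genes were called higher and 0.0227% lower. The median log2 ratio of type I members was -0.03, -0.12, -0.05 and -0.05 and that of all genes -0.03, -0.05, -0.01 and -0.05; the members' median lay within 0.1 of that of all genes in each library. Gamma-type members had 0.20, 0.04, 0.15 and 0.32. Gbp5 had 8.16, 9.19, 4.56 and 15.01 CPM in high-Spp1 and 2.89, 3.92, 1.499 and 5.48 CPM in low-Spp1 cells. Libraries 1 and 3 each stood above both others in 27 of 27 type I members, against 50.4% of all genes, and 21 of them had a range of 1 or more, against 6.14% of all genes. So did 4 of 10 gamma-type members, the immunity-related GTPases Igtp, Irgm1 and Irgm2, and Gbp3; Irgm1 had 32.1, 10.4, 22.3 and 9.75 CPM and Igtp 19.6, 9.19, 14.6 and 3.25 CPM.

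Alpha and delta cells each stood apart from beta cells in 1 member. In alpha cells this was Ifih1, at 98.4, 87.4, 94.1 and 79.6 CPM against 22.8, 8.39, 17.6 and 7.58 CPM in low-Spp1 beta cells, log2 ratios of 1.73, 2.41, 1.92 and 2.35; it was 1 of 33 members tested, where 1.73% of all genes were called higher and 2.4% lower. Its range over libraries in alpha cells was 0.28 log2 units, the smallest of the 25 type I members tested there. In delta cells it was Rtp4, which codes for a chaperone of receptor transport, at 97.9, 55.4, 75.3 and 50.8 CPM against 35.3, 4.57, 18.1 and 3.75 CPM, log2 ratios of 1.25, 2.17, 1.60 and 2.14; again 1 of 33 members was called, against 1.65% of all genes called higher and 1.57% lower. Rtp4 was far lower in alpha cells of libraries 2 and 4, at 1.59 and 0.953 CPM, than in delta cells of those libraries. With cells that carry markers of other types left out, Ifih1 in alpha cells had 97.5, 88.6, 96.4 and 79.7 CPM and Rtp4 in delta cells 92.2, 54.1, 70.6 and 50.4 CPM. A count of 1 in 33 is near the share of all genes called in either class.

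The type I sum of alpha cells was 1461, 449, 1004 and 492 CPM in libraries 1 to 4 and that of delta cells 2149.7, 562, 1056 and 546 CPM. Each value of both classes exceeded the low-Spp1 beta-cell value of the same library, with intervals that did not overlap. The median log2 ratio of type I members to those beta cells was -0.02, -0.0009, 0.08 and 0.06 in alpha cells, against -0.03, 0.03, -0.03 and 0.04 for all genes. The sum of alpha cells was thus higher without a like shift of the median member. In delta cells the median was 0.35, 0.16, 0.14 and 0.34, against -0.03, -0.01, -0.03 and -0.01 for all genes. Of the type I members, 18 of 25 tested in alpha cells and 20 of 27 in delta cells had a range of 1 or more over libraries, against 2.37% and 2.7% of all genes. Libraries 1 and 3 each stood above both others in 25 of 25 and 27 of 27 of them, against 23.9% and 38.3% of all genes. Gamma-type members reached the range in 0 of 9 in alpha cells and in 2 of 10 in delta cells (Gbp2 and Gbp3). Isg15 had 79.9, 1.73, 42.4 and 1.91 CPM in alpha and 224, 7.44, 53.9 and 15.2 CPM in delta cells, and Bst2 179, 17.9, 90.9 and 16.5 and 360.4, 85.3, 156 and 90.8 CPM. Irf7 had 93.1, 6.204, 42.4 and 6.99 CPM in alpha and 125, 13.6, 52.5 and 11.3 CPM in delta cells. For each of these 3 genes libraries 1 and 3 were above libraries 2 and 4. A single alpha cell of library 3 held 622 type I UMIs, or 19.8% of that class, with 26 of 27 members detected, and gave 94.8% of its Ifit2 UMIs. Markers of other cells differed between libraries here too: the macrophage list summed to 232, 24.4, 52.3 and 24.6 CPM in alpha cells and 339, 204, 264 and 215 CPM in delta cells. C1qa was the highest macrophage marker in both classes. Without C1qa the list summed to 130, 6.64, 26.8 and 5.88 CPM in alpha cells. In delta cells the same sum was 135, 14.3, 113 and 14.9 CPM. The endothelial list summed to 21.4, 169.5, 83.6 and 46.2 CPM in alpha cells, highest in library 2, and 100.3, 31.1, 33.6 and 27.1 CPM in delta cells. The B-cell list summed to 536, 17.3, 28.7 and 0.953 CPM in alpha and 51.7, 0.9297, 307 and 0.919 CPM in delta cells, but Ighm alone gave 526 CPM in alpha cells of library 1 and 277 CPM in delta cells of library 3. The other 6 markers summed to 10.3 CPM in those alpha cells and 29.5 CPM in those delta cells. With cells that carry such markers left out, the type I sum was 1090.3, 438, 751 and 495 CPM in alpha and 1866, 560.2, 869.9 and 546 CPM in delta cells, and 11 alpha-cell and 18 delta-cell members, gamma type included, had a range of 1 or more, against 18 and 22 with them.

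In endothelial cells the median range over the 4 libraries was 3.21 log2 units for type I and 2.24 for gamma-type members, against 0.55 for all genes. Their type I sum was 7282 CPM (7146 to 7419.9), 545 CPM (491 to 602), 4991 CPM (4886 to 5098) and 951 CPM (863 to 1046) in libraries 1 to 4, with library 1 13.4-fold (12.1 to 14.9) above library 2. All 25 type I members tested and 9 of 10 gamma-type members had a range of 1 or more, against 13.8% of all genes; libraries 1 and 3 each stood above both others in 24 of 25 and 10 of 10, against 26.6%. Irf1 was the member with a narrower range, at 109, 64.8, 92.5 and 91.6 CPM. Bst2 had 2024, 177, 1431 and 161 CPM, Isg15 816, 31.7, 469.96 and 46.9 CPM and Ly6e 655, 28.8, 547 and 15.6 CPM. Iigp1, an immunity-related GTPase, had 273, 20.2, 198 and 33.5 CPM and Gbp2, a guanylate-binding GTPase, 214, 40.3, 181 and 35.7 CPM. Irf7 had 635, 15.8, 366 and 20.1 CPM, Gbp7 213, 33.1, 143 and 40.2 CPM and Irgm1 135, 28.8, 97.1 and 37.97 CPM. In each of these genes both libraries 1 and 3 were above both others. Rsad2 went against this order, at 169, 25.9, 117 and 351 CPM, but 66.9% of its UMIs in library 4 came from 1 of 69 cells. Without the 1 highest cell of each library the type I sum was 7151, 467, 4833 and 633 CPM.

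Different clusters made up the endothelial class in the 4 libraries. Cluster 3, whose leading genes were Selp, Slco2a1 and Plvap, held 142, 14, 149 and 11 of its cells, and cluster 22, led by Igfbp3, Esm1 and the haemoglobin gene Hbb-bs, held 8, 68, 3 and 58. Within cluster 3 the type I sum was 7442, 649.8, 4956 and 395 CPM in libraries 1 to 4, and within cluster 22 it was 4514, 529.7, 6801 and 1031 CPM. Libraries 1 and 3 thus stood above libraries 2 and 4 within each cluster too, though few cells stand behind some of these values. Against low-Spp1 beta cells, 6 of 35 members tested were called higher, where 7.27% of all genes were called higher and 11.5% lower: Isg15, Bst2, Rtp4, Xaf1, Trim30a and, of the gamma type, Gbp2. Bst2 had log2 ratios of 3.62, 2.34, 3.88 and 2.58 and Gbp2 3.75, 1.67, 3.55 and 1.67. Isg15 had 3.51, 1.65, 3.34 and 2.14 and Rtp4 2.42, 1.47, 2.59 and 1.51. Trim30a had 3.98, 1.34, 3.49 and 2.39 and Xaf1, a regulator of apoptosis, 1.70, 1.05, 1.97 and 1.04. The median type I ratio was 1.70, 0.46, 1.91 and 0.69 against -0.27, -0.20, -0.27 and -0.19 for all genes. Without library 2 the count was 13, so that library sets it.

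**Figure D3:**
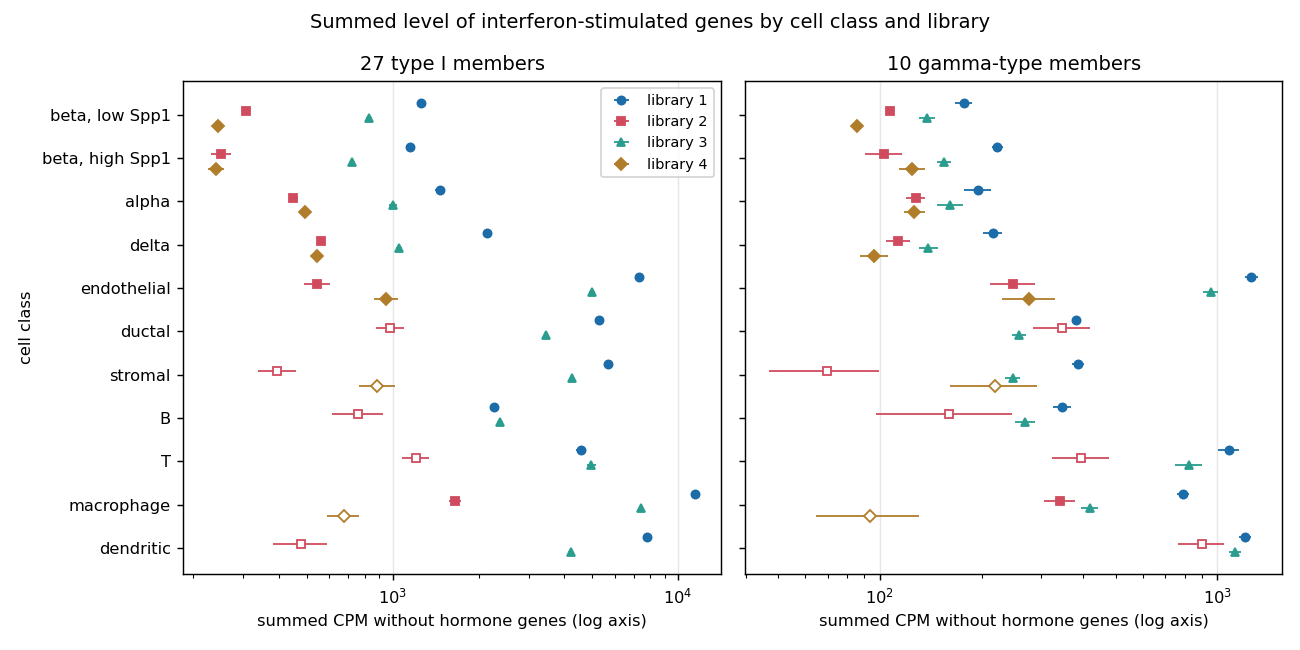
Summed level of the 27 type I (left) and 10 gamma-type members (right) in CPM without hormone genes, on a log axis, by class and library, with exact 95% Poisson intervals; open symbols mark fewer than 50 cells and classes with fewer than 10 are not drawn. Type I sums in endothelial cells ranged from 545 to 7282 CPM and those in low-Spp1 beta cells from 244 to 1257 CPM.

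Ductal and stromal cells could be compared with beta cells in libraries 1 and 3 only, the libraries with 50 cells or more. The ductal type I sum was 5286 and 3442 CPM and the stromal sum 5682 and 4251 CPM in these libraries, with 979.6 CPM in the 21 ductal cells of library 2 and 395 and 885 CPM in the 31 and 33 stromal cells of libraries 2 and 4. Of the ductal type I UMIs of library 2, 1 cell held 32.1%, and without it the sum was 720 CPM. In the stromal cells of libraries 2 and 4, 1 cell held 35.9% and 75.7% of the type I UMIs. Without it the stromal sums were 261 and 228 CPM. The pericyte-like cluster 25 held 23 of 31 and 25 of 33 of these stromal cells, against 43 of 206 and 35 of 200 in libraries 1 and 3. There the fibroblast-like cluster 14 held 143 and 159. Within cluster 25 the type I sum was 8915, 461, 4796 and 221 CPM in libraries 1 to 4. In ductal cells 15 of 27 type I and 4 of 10 gamma-type members were called higher and 0 lower, against 6.5% and 13.7% of all genes. Ifit3 led, at 493 and 233 CPM and log2 ratios of 3.05 and 3.37, with Ifi44 at 3.43 and 2.99, Isg15 at 3.14 and 2.85 and Irf7 at 2.94 and 2.94. Gbp2, Gbp3 and Irgm1 were the other gamma-type members called, with medians of 1.54, 1.29 and 1.11. In stromal cells, made up of fibroblast-like and pericyte-like clusters, 13 of 27 type I and 3 of 10 gamma-type members were called higher and 0 lower, against 8.49% and 16.5%. Isg15 led, at 975 and 662 CPM and log2 ratios of 3.77 and 3.83, Bst2 had 3.33 and 3.79 and Ifit3 2.95 and 3.60, and Zbp1, a sensor of Z-form nucleic acid that can start necroptosis, had 2.87 and 2.495. Iigp1 was higher in both, with ratios of 2.37 and 2.07 in ductal and 2.38 and 2.03 in stromal cells. Gbp2 and Gbp3 were also higher in stromal cells, with medians of 1.53 and 1.67. Between libraries 1 and 3 a range of 1 or more was reached by Ifit1 and Ifit3 in ductal cells (2 of 37, against 0.0859% of all genes) and by Irgm1 in stromal cells (1 of 37, against 0.62%).

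In B cells the type I sum was not higher in library 1 than in library 3, though 16 of 26 type I members tested were and 10 were not. Their type I sum was 2269 and 2380.4 CPM in libraries 1 and 3, 0.953-fold (0.922 to 0.985) for library 1 over library 3. Ifi27l2a alone gave 676 and 823 CPM of this sum, and the other members together were not lower in library 1. No member of 35 tested had a range of 1 or more, against 0.465% of all genes. Of 36 members 5 were called higher than in low-Spp1 beta cells and 1 lower, against 6.88% and 23.2% of all genes. Ifi27l2a had 676 and 823 CPM, with log2 ratios of 3.43 and 4.19, and Trim30a, an E3 ligase family member, 122 and 163 CPM. Zbp1, Ly6e and, of the gamma type, Gbp4 were the other 3, with ratios of 2.03 and 2.23, 1.12 and 1.09 and 1.65 and 1.24. Ly6e was detected in 82.4 and 80.2% of B cells thinned to 5000 UMIs, the 222 and 212 deep enough of 649 and 495. Ifih1 was the member called lower, at 3.13 and 1.05 CPM. The gamma-type sum was 347 and 269 CPM, with Irf1 at 91.3 and 80.1, Irgm1 at 66.3 and 63.6 and Gbp2 at 45.4 and 18.98 CPM.

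T cells carried gamma-type members broadly. Of 10 gamma-type members 8 were called higher than in low-Spp1 beta cells and of 27 type I members 9, with 0 lower, against 7.27% and 19.8% of all genes. Gbp2 had 226 and 111 CPM in libraries 1 and 3, log2 ratios of 3.82 and 2.88, Gbp4 had 3.30 and 2.59 and Gbp5, which promotes inflammasome assembly, 2.66 and 2.96. Iigp1 had 2.76 and 2.52. Of the type I members Trim30a had ratios of 3.52 and 3.64, Zbp1 2.56 and 2.94 and Isg15 1.70 and 2.00. Ifi27l2a was higher than in every other class of the same library, at 2284 and 3122 CPM, and at 818 CPM in the 46 T cells of library 2. The type I sum was 4566 and 4967 CPM, 0.919-fold (0.873 to 0.968) for library 1 over library 3. Ifi27l2a alone gave 2284 and 3122 CPM of this sum, and the other members together were higher in library 1. Of 24 type I members tested between these libraries, 19 were higher in library 1 and 5 in library 3. Oasl2, Rsad2, Usp18 and Ifi44 were the 4 of 24 type I members with a range of 1 or more between libraries 1 and 3, all higher in library 1, against 3.08% of all genes. Oasl2 had 34.2 and 11.1 CPM and Ifi44, a microtubule-associated antiviral protein, 25.3 and 0 CPM, where 0 UMIs allow up to 5.55 CPM. The gamma-type sum of the class was 1079.6 and 822 CPM.

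Macrophages had the highest type I sum of the named classes in libraries 1 to 3. It was 11478, 1655 and 7399 CPM in libraries 1 to 3 and 673 CPM in the 38 cells of library 4. Against low-Spp1 beta cells 17 type I and 3 gamma-type members of 36 tested were called higher and 0 lower, where 6.63% and 16% of all genes were called. Isg15 had 1801, 207 and 821 CPM, log2 ratios of 4.65, 4.04 and 4.14, with 55.8% of its library 2 UMIs in 1 cell, Rsad2 851, 200.4 and 472 CPM and Ifi27l2a 1518, 66.8 and 1027 CPM. Trim30a had ratios of 4.15, 3.24 and 3.98. Of the gamma type, Gbp2 had 3.66, 2.63 and 2.64, Gbp3 2.15, 2.12 and 1.45 and Gbp5 2.23, 1.45 and 1.47. Over libraries 1 to 3, 26 of 27 type I and 6 of 10 gamma-type members had a range of 1 or more, against 8.16% of all genes, with Irf9 the type I exception at 72.5, 36.9 and 63.3 CPM; without library 2 the count over all members was 6 of 37. The single cell with the most type I UMIs held 24.2% of those of library 2, and the tenth of thinned cells with the most held 70.8%. Without that cell the type I sum of library 2 was 1264 CPM.

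The macrophage class was not the same mixture in each library. Cluster 9, led by Retnla, Chil3 and other genes of alternative activation, held 138, 0 and 114 of its cells in libraries 1 to 3 and cluster 20, led by Ifitm1, Lyz2 and C1qa, held 28, 88 and 42. Within cluster 20 the type I sum was 2266, 1655 and 3177 CPM, and 673 CPM in 37 cells of library 4. Within cluster 9 it was 13173 CPM in library 1 and 8197 CPM in library 3. Library 2 was therefore lowest of the 3 within cluster 20 too, but by less than in the class as a whole, and library 3 stood above library 1 there. Dendritic cells had a type I sum of 7773 and 4209 CPM in libraries 1 and 3, with 16 type I and 5 gamma-type members of 36 called higher and Ly6e called lower, against 7.59% and 27.7% of all genes. Gbp2 and Gbp5 had log2 ratios of 4.45 and 4.65 and 4.29 and 4.05 there, Irf1 2.502 and 2.60 and Gbp3 2.02 and 1.98. Of the type I members Ifi27l2a had 4.26 and 4.14, Isg15 4.45 and 3.43, Trim30a 4.18 and 3.52 and Irf7 3.55 and 3.28. Ly6e had 111 and 82.3 CPM. Between libraries 1 and 3 a range of 1 or more was reached by Isg15, Ifit1, Ifit3, Irf7, Oasl1, Rsad2 and Usp18 (7 of 26 type I members, all higher in library 1, and 0 of 10 gamma-type ones, against 1.42% of all genes). In the 20 dendritic cells of library 2 the type I sum was 476 CPM while the gamma-type sum was 897 CPM, against 1203 and 1126 CPM in libraries 1 and 3. Gbp2 was at 355, 349 and 402 CPM in libraries 1 to 3, with overlapping intervals between libraries 1 and 2.

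**Figure D4:**
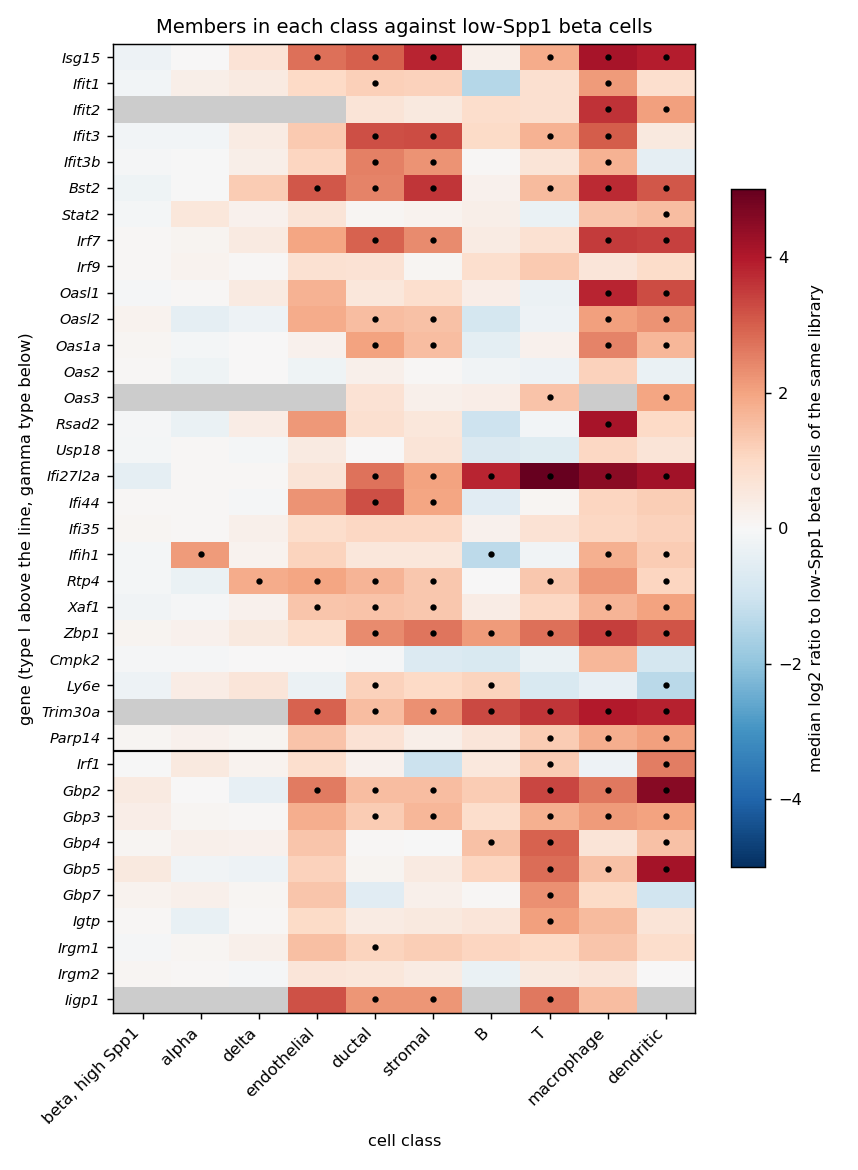
Median log2 ratio of each member to low-Spp1 beta cells of the same library (CPM plus 10), over the libraries with 50 cells or more of both classes; black dots mark members past 1 or -1 in every such library and grey marks members with too few UMIs. Ifih1 in alpha cells (2.13) and Rtp4 in delta cells (1.87) are the members called in those classes.

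Of the other genes of the pathway, 68 of 69 listed had a row (Cxcl11 was not analysed here). Ligands were close to absent in the classes compared here. Other cells, such as those of the unnamed clusters, were not counted for them. Ifnb1 (interferon beta) had 12 UMIs in the compared classes, 11 in macrophages of library 1 and 1 in macrophages of library 3. Of the 11, 81.8% were in 1 cell. Ifng had 15 UMIs, 8 of them in T cells, at 4.47, 10.9 and 3.701 CPM in libraries 1 to 3, and Ifnk 23, spread over 8 classes. The type I receptor chains were near level over libraries in low-Spp1 beta cells, at 24.2, 22.4, 20.7 and 22.5 CPM for Ifnar1 and 105, 81.5, 98.3 and 88.4 CPM for Ifnar2. Ifngr1 had 25.3, 19.7, 22.7 and 17.7 CPM and Ifngr2 25.7, 18.4, 27.6 and 24.2 CPM there, and Ifngr1 stood at 841 and 919.7 CPM in T cells of libraries 1 and 3. Ifnlr1, the receptor of interferon lambda, had 1.12, 0.734, 0.5997 and 0.719 CPM in beta cells.

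In low-Spp1 beta cells 7 of 56 pathway genes tested had a range of 1 or more, against the same 3.28% of all genes: the helicases Dhx58 and Ddx60, Ifitm3, Parp9, Herc6 and the immunoproteasome subunits Psmb8 and Psmb9, all highest in library 1. Ifitm3, a membrane protein that blocks virus entry, had 110.1, 4.84, 66.1 and 2.22 CPM in low-Spp1 beta and 6177, 826, 4408 and 934 CPM in endothelial cells. Psmb8 had 161, 69.1, 140.03 and 69.5 CPM in low-Spp1 beta cells. Cxcl10, a chemokine that draws T cells, did not follow the order of the type I members, at 9.63, 12.9, 4.897 and 16.5 CPM in low-Spp1 beta cells, and stood at 244, 1.44, 55.3 and 0 CPM in endothelial cells, where 0 UMIs in library 4 allow up to 6.701 CPM. Against low-Spp1 beta cells 10 of 49 pathway genes tested were called higher in endothelial cells and 1 lower, against 7.27% and 11.5% of all genes. In macrophages 22 of 55 were called higher and 1 lower, against 6.63% and 16%, and in dendritic cells 27 of 53 were called higher and 2 lower, against 7.59% and 27.7%. Socs1, an inhibitor of interferon signalling, had 4.17, 3.14, 4.398 and 5.003 CPM in low-Spp1 beta and 33.3, 25.9, 20.9 and 26.8 CPM in endothelial cells.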

How the data were processed

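The deposited counts are whole numbers of unique molecular identifiers (UMIs), from 1 matrix of all cells made with Cell Ranger 6.1.2 against mm10, per the submitters' processing notes; how its barcodes were chosen is not stated in these sources. Gene positions are from GENCODE M21 and promoters from RefSeq, both GRCm38. The members and gene lists were chosen with earlier results of these data known.

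Barcodes with at least 500 genes and at most 20% mitochondrial UMIs were kept. Hormone cells were classed by their share of Ins2, Gcg and Sst UMIs; 631 cells past several thresholds were left out, 187 Ppy cells were set aside and no doublet caller was run. The 5014 other cells were clustered without the members (scanpy 1.11.5, Leiden, 29 clusters) and 20 clusters were named from markers; the naming rule was set after the clusters were seen. Summed UMIs of a class in a library gave CPM, taken over the total without hormone genes. Log2 ratios and ranges used CPM plus 10, genes with at least 10 UMIs and libraries with at least 50 cells. On simulated data (12518 genes for ratios, 16447 for ranges) 100% of genes changed 4-fold were recovered and 0% of unchanged genes called. The changed genes were drawn from those with at least 50 CPM in low-Spp1 beta cells of every library, and only counting noise was simulated. Most members lay below that level, so the recovery does not cover them. No p-value was computed, since no library could be tied to a group. Named genes were, per group, the 5 with the highest median CPM in low-Spp1 beta and in endothelial cells and the 3 in B cells, up to 4 called per class and direction with the largest ratio, and the 4 with the widest range in beta cells; others were picked by role or after their values were seen. Alternatives were another total, pseudocount or mean, and leaving out libraries or cells.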

Additional observations from a re-analysis of the deposited data

Results flagged for a closer look

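Cells that no comparison used also held type I transcripts, above the limit that a count of 0 allows. The values are summed type I CPM, as the median, lowest and highest over the libraries with 4 cells or more. Barcodes with too few genes or too many mitochondrial UMIs stood at 557 CPM (128 to 1109, 3841 cells, 4 libraries). Among endocrine and exocrine cells, Ppy cells, which make pancreatic polypeptide, stood at 711 CPM (519 to 844, 187 cells, 4 libraries), cells with several hormones at 748 CPM (429 to 1632, 631 cells, 4 libraries) and acinar-like cells, which make digestive enzymes, at 303 CPM (293 to 313, 56 cells, 2 libraries). Plasma-cell-like cells stood at 1899.8 CPM (1495 to 2305, 59 cells, 2 libraries), Schwann-like cells, the glia of peripheral nerve, at 1918 CPM (212 to 5251, 59 cells, 4 libraries) and mast-cell-like cells at 4507 CPM in the 1 library with enough of them. Unnamed clusters spanned a wide range. Cluster 13, led by Saa3, Clec4e and Cxcl3, was highest, at 13915 CPM (12689 to 15141, 45 cells, 2 libraries), then cluster 17, at 8041 CPM (6427 to 10309.7, 15 cells, 3 libraries), whose leading genes include Siglech and Ccr9. Cluster 16 stood at 3988 CPM (880.2 to 6626, 150 cells, 3 libraries), cluster 5 at 2959 CPM (956 to 3132, 31 cells, 3 libraries), cluster 18 at 2943 CPM (2682 to 3204, 70 cells, 2 libraries) and cluster 10 at 1518 CPM (1437 to 1598, 71 cells, 2 libraries). Cluster 8 stood at 844 CPM (370.01 to 1454, 171 cells, 4 libraries), cluster 23 at 578 CPM (380.2 to 1079.7, 64 cells, 4 libraries) and cluster 27 at 368 CPM (289.7 to 900.4, 45 cells, 3 libraries).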

How the results depend on the processing

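No paired analysis was possible because no label ties a library number to a sample or to a replicate. Of 240 recomputed counts of members called or past the range, 214 stayed within 1.5 times of the reported count and 26 moved. Some of the 214 could not move. Leaving out endocrine cells with a second hormone or with markers of other types cannot change the ranges of the other classes. Of all 3638 recomputed values, single genes and medians included, 994 moved and 4 changed sign. With a pseudocount of 1 in place of 10, the members past a 2-fold range went from 17 to 33 in low-Spp1 beta cells, 2 to 5 in ductal, 1 to 3 in stromal, 0 to 6 in B and 7 to 12 in dendritic cells, and the members called against low-Spp1 beta cells from 0 to 1 in high-Spp1 beta, 6 to 13 in endothelial and 6 to 17 in B cells. With CPM over all genes, hormones included, the calls were 2 in delta, 15 in endothelial and 14 in B cells. With CPM averaged over single cells, the range counts were 10 in alpha, 3 in stromal and 2 in dendritic cells; with the top cell left out 1 in ductal cells, and with cells that carry markers of other types left out 11 in alpha cells (both chosen after seeing the data). Without each library in turn, calls were 1 to 2 in delta, 6 to 13 in endothelial, 10 to 11 in B and 20 to 31 in macrophage cells, the highest endothelial and macrophage counts without library 2. Range counts were 10 to 17 in low-Spp1 beta, 12 to 25 in high-Spp1 beta, 11 to 17 in alpha and 7 to 22 in delta cells, lowest without library 1, and 6 to 31 in macrophages, lowest without library 2. The median type I ratio of high- to low-Spp1 beta cells turned from below 0 to 0.0243 over all genes and to 0.0114 without the marker-bearing cells. The median gamma-type ratio of alpha cells turned from above 0 to -0.0356 with CPM averaged over single cells and to -0.0036 without them. The cause of these changes was not tested. Classes with few cells in libraries 2 and 4 limit ductal, stromal, B, T and dendritic comparisons to libraries 1 and 3.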

Other observations

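Values of 3 pathway genes of antigen processing follow. Psmb9, an immunoproteasome subunit, had 58.6, 18.9, 55.7 and 15.999 CPM in low-Spp1 beta cells of libraries 1 to 4 and 88.6, 27.4, 66.3 and 13.4 CPM in endothelial cells, against 271 and 217 CPM in T cells of libraries 1 and 3. Tap1, part of the peptide transporter for class I presentation, had 19.9, 9.21, 19.3 and 8.599 CPM in low-Spp1 beta and 92.6, 15.8, 55.8 and 20.1 CPM in endothelial cells, and 115 and 99.9 CPM in T cells of libraries 1 and 3. Nlrc5, the activator of class I genes, had 2.89, 1.14, 2.599 and 0.959 CPM in low-Spp1 beta cells and 26.8 and 16.7 CPM in those T cells.

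Tlr7, a sensor of single-stranded RNA, had 16.6 and 19.7 CPM in B cells of libraries 1 and 3. Irf8, a factor of myeloid and B-cell development, had 347 and 394 CPM in B cells, 616 and 554 CPM in dendritic cells and 133 and 148 CPM in macrophages of libraries 1 and 3. Pathway genes called higher than in low-Spp1 beta cells numbered 19 of 54 tested in B cells, with 4 lower, against 6.88% and 23.2% of all genes, and 24 of 52 in T cells, with 3 lower, against 7.27% and 19.8%. These values were picked after they were seen, and no test was made.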
